A study of Mus musculus with 50 samples.

Results

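Among 50 mouse liver libraries, the 16 with the highest and the 16 with the lowest expression of Igfbp1 were set against each other, and the 18 libraries between them were left out of the comparison. The groups were therefore chosen by a measured value and not by a treatment, and every test below asks only which other genes varied with Igfbp1 from liver to liver. Igfbp1 itself is described without a test. All livers were the caudate lobe of male N2 mice that were fasted overnight and were 5 weeks old, although the labels call the animals F2 and adult. Each mouse carried 1 recombinant A/J and C57BL/6J copy and 1 C57BL/6J copy of chromosomes 4 and 6 on a genome that was otherwise C57BL/6J, and these features were shared by both groups. The genotypes were not used here, and the labels name 1 group only.

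Igfbp1 encodes a secreted protein that binds insulin-like growth factors, and hepatocytes are its main source. Its transcription is switched on by the forkhead factor FOXO1 when insulin is low, as in fasting, and is shut off within a short time by insulin; glucagon, glucocorticoids and cellular stress can also raise it. Pck1 and G6pc, which encode the enzymes of the first committed and the last step of gluconeogenesis, are the textbook companions of Igfbp1 in this response, and a fasting liver also turns up fatty acid oxidation and turns down the synthesis of fat.

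Igfbp1 spanned a wide range although every mouse had been fasted. Expression is given as the deposited normalized value, a CPM (counts scaled to library size) whose library sizes were rescaled between libraries. Over the 50 libraries Igfbp1 ran from 45.2 to 768 with a median of 142, on 649 to 10671 reads. In the 16 high livers the lowest value was 195.5, the median 280.2 and the highest 768, and the mean was 323 ± 138 (SD, n = 16). In the 16 low livers the lowest was 45.2, the median 91.5 and the highest 113, with a mean of 90.3 ± 19.8 (SD, n = 16). The last library inside the high group stood at 195.5 and the next one outside it at 192.1, while the first library inside the low group stood at 113 and its neighbour outside at 118, so the borders cut through a continuous distribution. One library, number 22, lay well above the second highest, 768 against 411. It carries the same animal number as library 55, which lay between the groups at 142.8, and library 8 of the low group shares its animal number with library 10, also between them. Both pairs were kept. Without libraries 22 and 8, the pair members inside the groups, 224 genes passed the test described below in place of 381.

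**Figure D1:**
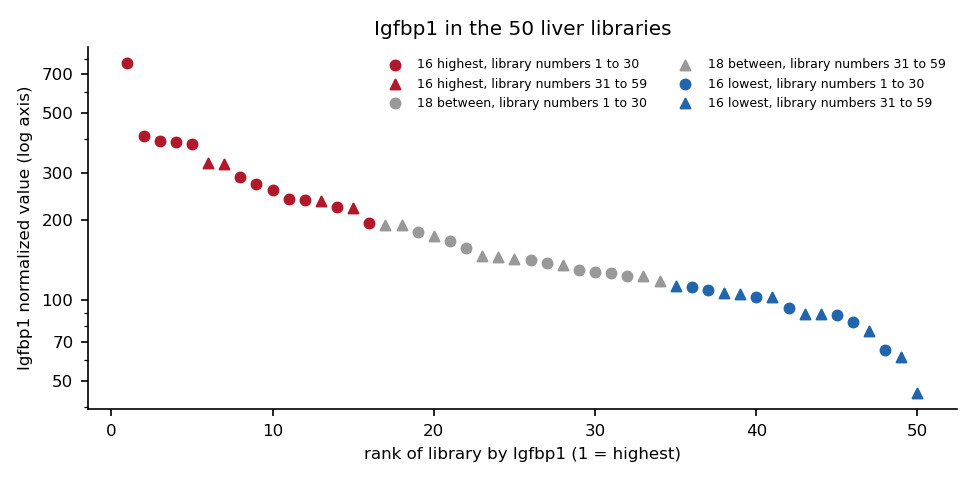
Igfbp1 normalized value (vertical log axis) against the rank of each of the 50 libraries. Colours mark the 16 highest, the 18 between and the 16 lowest, and shapes mark library numbers 1 to 30 and 31 to 59; values fell without a break from 768 to 45.2, and the high group held 12 libraries of the lower numbers against 7 in the low group.

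The 250 bases upstream of the annotated start of Igfbp1 and of 3 other genes of the insulin response are printed from RefSeq (GRCm38.p6), because the label of the comparison rests on their shared regulation. Capitals mark CAAAACA or its reverse complement TGTTTTG, the core of the insulin response element of the Igfbp1 promoter. The windows lie at chr11:7197537-7197786 (plus strand) for Igfbp1, chr8:11008930-11009179 (minus strand) for Irs2, chr11:101367466-101367715 (plus strand) for G6pc and chr2:173152823-173153072 (plus strand) for Pck1.
Igfbp1: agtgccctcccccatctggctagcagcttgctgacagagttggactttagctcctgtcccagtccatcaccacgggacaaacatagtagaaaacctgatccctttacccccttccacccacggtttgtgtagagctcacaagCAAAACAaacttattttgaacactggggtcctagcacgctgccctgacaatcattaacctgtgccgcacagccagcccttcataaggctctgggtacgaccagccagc
Irs2: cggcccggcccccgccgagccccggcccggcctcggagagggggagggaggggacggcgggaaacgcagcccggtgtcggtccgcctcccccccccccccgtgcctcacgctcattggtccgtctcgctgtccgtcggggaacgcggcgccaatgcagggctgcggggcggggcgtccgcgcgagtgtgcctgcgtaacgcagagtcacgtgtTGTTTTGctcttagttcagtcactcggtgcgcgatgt
G6pc: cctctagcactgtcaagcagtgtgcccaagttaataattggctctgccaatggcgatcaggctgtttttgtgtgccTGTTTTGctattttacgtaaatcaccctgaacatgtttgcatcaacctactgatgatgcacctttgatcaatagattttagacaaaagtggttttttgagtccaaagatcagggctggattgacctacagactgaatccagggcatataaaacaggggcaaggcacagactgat
Pck1: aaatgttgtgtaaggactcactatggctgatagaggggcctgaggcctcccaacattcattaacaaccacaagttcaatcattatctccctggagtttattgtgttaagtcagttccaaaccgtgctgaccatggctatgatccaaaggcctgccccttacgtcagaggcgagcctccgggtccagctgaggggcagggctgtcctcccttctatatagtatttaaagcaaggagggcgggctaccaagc
Counted from the start, the first base of the core lay at -108 in Igfbp1, -37 in Irs2 and -174 in G6pc, and these letters were not found in the Pck1 window. The same letters, on either strand, occurred in 5.56% of the 32851 promoter windows of that length. The exact letters of the forkhead core GTAAACA (3.17% of windows) and of the cAMP response element TGACGTCA (1.55%), searched on both strands, were not found in the 4 windows. Variants were not searched, so letters close to that element, such as ttacgtca in the Pck1 window, were not counted. A match of letters is a description and does not show that a factor was bound.

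Of 11435 genes with a mean value of 1 or more, 381 differed between the high and the low Igfbp1 livers at an adjusted p under 0.05 (limma on log2 of the value plus 0.5, Benjamini-Hochberg), which is 3.33% of the genes tested. In the high livers 206 genes (1.8%) were higher and the others (1.53%) were lower, and differences below are given on that log2 scale as high minus low with their standard error (SE). No gene separated the 16 high from the 16 low livers without overlap (0% of the genes tested). The genes with the strongest association encoded a G protein regulator, the leptin receptor and enzymes of fatty acid oxidation on the high side, and an IκB family protein and the glucocorticoid receptor on the low side. The gluconeogenic genes that share the textbook response with Igfbp1 were not among them. On chromosome 4, which segregates in this cross, 29 of 729 genes were called (3.98%), on chromosome 6, the other segregating one, 17 of 575 (2.96%), and on the remaining chromosomes 335 of 10131 (3.31%).

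**Figure D2:**
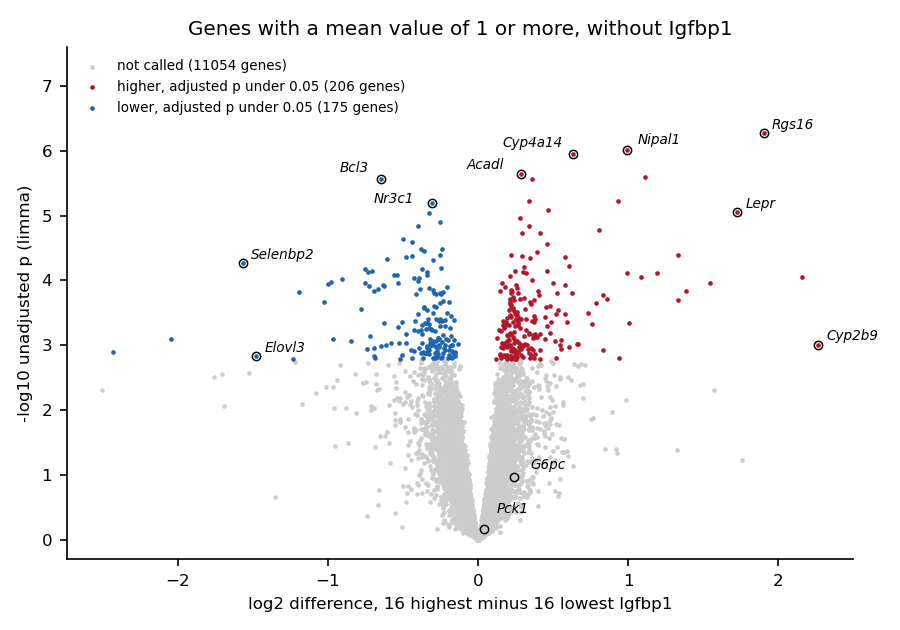
Log2 difference, high minus low Igfbp1 livers (horizontal axis), against -log10 of the unadjusted limma p (vertical axis) for 11435 genes. Red points are the 206 genes higher and blue points the genes lower at an adjusted p under 0.05; circled genes are discussed in the text, and Pck1 and G6pc lie among the grey points that were not called.

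Pck1 and G6pc were examined first, as the check of what high Igfbp1 stands for. Pck1 ran from 2303 through a median of 3501 to 4512 in the high livers and from 2322 through 3529 to 4833 in the low livers. The groups overlapped over nearly their whole range, and 7 of the 16 high livers lay above the low median. The difference was 0.04 ± 0.10 (SE, adjusted p = 0.85), with 0.01 among library numbers 1 to 30 and 0.21 among numbers 31 to 59. G6pc ran from 206 through 434 to 754 in the high and from 263 through 364 to 507 in the low livers. In 6 high livers it exceeded every low liver, but 2 lay below all of them, so the high group was wider on both sides. Its difference was 0.24 ± 0.14 (SE, adjusted p = 0.338), with 0.25 and 0.22 within the 2 sets of library numbers. With Igfbp1 used as a continuous value over all 50 libraries, G6pc passed the threshold (0.35, adjusted p = 0.0454). Pck1 did not (0.09, adjusted p = 0.546). That fit held both libraries of each pair that shares an animal number, so its p-values may measure spread within an animal. Of the other marker genes of the response, G6pc passed in that fit only and Pck1 in none of the fits run.

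Other members of the FOXO and insulin signalling list moved unevenly. Of 18 genes, 2 were higher in the high livers (11.1%, against 1.8% of all genes in that direction), none was lower, and the median difference was 0.05, beside -0.00 over all genes tested. Neither of the 2 was called once the set of library numbers, animal number or Saa1 was a covariate. Irs2, the adaptor through which the insulin receptor signals in hepatocytes, ran from 14.4 through 19.9 to 41.5 in the high livers and from 7.14 through 14.96 to 20.97 in the low ones. In 7 high livers it lay above every low liver, and the difference was 0.58 ± 0.14 (SE, adjusted p = 0.027). Within the sets of library numbers it was 0.67 and 0.20. Ccng2, a cyclin-related gene of cell cycle arrest induced by FOXO factors, ran from 14.5 through 20.2 to 26.7 against 10.5 through 15.9 to 19.7, and 9 high livers exceeded all low ones (0.31 ± 0.09 SE, adjusted p = 0.0419). The insulin receptor gene Insr did not pass (-0.13, adjusted p = 0.306). In the gluconeogenesis list 1 of 14 genes was called (7.14%), with a median of 0.12, and none was with any of these covariates. This was Ldha, which encodes the muscle-type subunit of lactate dehydrogenase, at 642 through 924 to 1187 in the high and 692 through 776 to 877 in the low livers (0.26 ± 0.06 SE, adjusted p = 0.0187). Got1, the cytosolic aspartate aminotransferase, had a larger difference that did not pass (0.51 ± 0.16 SE, adjusted p = 0.0661).

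Genes that insulin induces did not shift as a block. Of 20 genes of glycolysis and fat synthesis, 3 were higher and 1 was lower (20% called, against 3.33% of all genes in either direction), and the median was -0.03. Srebf1, the transcription factor that carries the insulin signal to lipogenic genes, ran from 16.2 through 28.2 to 54.6 in the high livers. In the low livers it ran from 22.8 through 39.3 to 98.5. In 15 high livers it lay below the low median, and the difference was -0.65 ± 0.18 (SE, adjusted p = 0.0421). It came to -0.22 among library numbers 1 to 30 and to -1.25 among numbers 31 to 59. The 3 higher genes encode enzymes of polyunsaturated fatty acid synthesis, namely Fads2, the delta-6 desaturase, Elovl5, an elongase, and Fads1, the delta-5 desaturase. Fads2 ran from 214 through 249 to 315 against 150.4 through 197.3 to 240.1, with 10 high livers above all low ones (0.34 ± 0.06 SE, adjusted p = 0.00722). Elovl5 differed by 0.61 ± 0.13 (SE, adjusted p = 0.017), and the difference was 0.85 among library numbers 1 to 30 and 0.22 among numbers 31 to 59. Fads1 differed by 0.26 ± 0.07 (SE, adjusted p = 0.0458). Of the 4 calls, Fads2 and Elovl5 passed with the library set as a covariate, and Fads2 alone with animal number or Saa1. Srebf1 and Fads1 also missed the threshold without library 24 and with every library rescaled to the same total. No gene was called among 11 of glycogen metabolism (median -0.07) or among 16 of the glucagon, cAMP and immediate-early response (median 0.02).

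**Figure D3:**
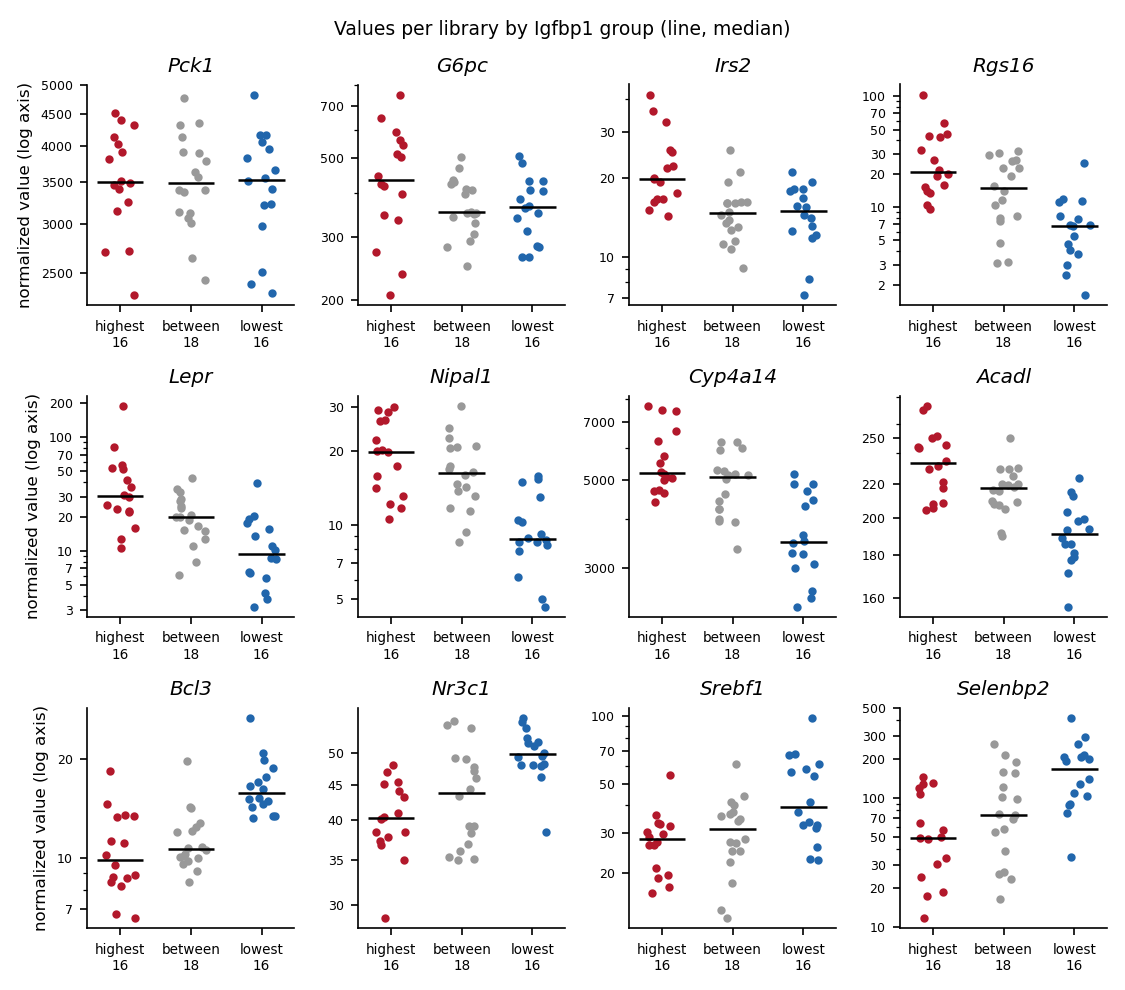
Normalized values per library (vertical log axes, scaled for each gene) of 12 genes in the 16 highest, the 18 between and the 16 lowest Igfbp1 libraries; each point is a library and each line a median. Pck1 medians lay level (3501 against 3529), Rgs16, Lepr, Nipal1, Cyp4a14 and Acadl were higher in the high livers, and Bcl3, Nr3c1, Srebf1 and Selenbp2 were lower, all with overlapping points.

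Fatty acid oxidation was the list with the most calls. Of 28 genes of fatty acid oxidation, ketogenesis and PPARα targets, 12 were higher and none was lower (42.9% called, against 1.8% of all genes in that direction), 27 of 28 differences were positive, and the median was 0.22. The calls fell to 3 with the library set or animal number as a covariate and to 2 with Saa1, to 7 without library 24, and to 0 within either set of library numbers, while the median stayed between 0.18 and 0.24 in these fits. Without library 22, the highest in Igfbp1, 15 were called and the median was 0.25. That library held the lowest value of the high livers for Cyp4a14, Cyp4a10, Acadl, Hadhb, Acadm, Ehhadh, Vnn1 and Acot1, but not for Cpt1a or Fgf21. For Hadhb, Vnn1 and Acot1 it lay below every low liver. In a bulk liver piece, more cells of a type and more RNA per cell cannot be told apart. The omega-hydroxylase genes Cyp4a14 (chr4:115486200-115496142 in GRCm38) and Cyp4a10 (chr4:115518264-115533649), both induced by PPARα, had differences past the threshold. Cyp4a14 ran from 4403 through 5212 to 7669 in the high livers and from 2402 through 3498 to 5175 in the low livers. All 16 high livers lay above the low median and 9 above every low liver (0.64 ± 0.11 SE, adjusted p = 0.00423). Cyp4a10 ran from 3157 through 3692 to 4562 against 1819.6 through 2571 to 3914 (0.47 ± 0.09 SE, adjusted p = 0.00792). The paralogs resemble each other in sequence, and reads may have been split between them or dropped.

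The mitochondrial enzymes of the pathway differed by less but with little spread. Acadl, the long-chain acyl-CoA dehydrogenase, ran from 204 through 233 to 273 in the high livers and from 156 through 191.05 to 224 in the low ones, with 10 high livers above all low livers (0.28 ± 0.05 SE, adjusted p = 0.00441). Its difference was 0.29 among library numbers 1 to 30 and 0.28 among numbers 31 to 59. Hadhb of the trifunctional protein (0.22), the medium-chain dehydrogenase gene Acadm (0.22) and the very-long-chain gene Acadvl (0.13) were also called, with adjusted p between 0.0189 and 0.0389. Ehhadh, the peroxisomal bifunctional enzyme, ran from 534 through 1261 to 1992 against 525 through 765 to 1135, and 12 high livers exceeded every low liver (0.53 ± 0.13 SE, adjusted p = 0.025). The PPARα targets Vnn1, a pantetheinase (0.51), the thioesterase paralogs Acot1 (0.55) and Acot2 (0.61), which can share reads, and Fgf21, the fasting hormone (0.94), were called with adjusted p between 0.0406 and 0.0489. Fgf21 was low in every liver, at 0.998 through 2.34 to 8.59 in the high and 0.241 through 1.51 to 3.65 in the low group. Cpt1a, which controls the import of fatty acids into mitochondria, did not pass (0.24, adjusted p = 0.0767). Pdk4, which spares glucose by blocking pyruvate dehydrogenase, was at 0.60 (adjusted p = 0.0681), with 14 of 16 high livers above the low median.

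Rgs16, a GTPase-activating protein that ends signalling through G proteins (chr1:153740349-153745468), had the smallest p of all genes. It ran from 9.68 through 20.8 to 103 in the high livers and from 1.599 through 6.77 to 24.96 in the low livers. All 16 high livers lay above the low median, 7 lay above every low liver, and the difference was 1.90 ± 0.31 (SE, adjusted p = 0.00423), or 4.06-fold between group means. The livers between had a median of 14.7. Lepr, the leptin receptor (chr4:101717404-101815352), ran from 10.6 through 30.2 to 188 against 3.21 through 9.42 to 39.6. Its difference was 1.73 ± 0.33 (SE, adjusted p = 0.00792), and it lies on a segregating chromosome whose alleles were not used. Leprot, its neighbour on chromosome 4, was at 0.02 (adjusted p = 0.899). Nipal1, of a family of magnesium transporters, ran from 10.6 through 19.8 to 30.1 against 4.67 through 8.77 to 15.8, and 11 high livers exceeded all low ones (0.99 ± 0.17 SE, adjusted p = 0.00423).

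Among the remaining genes of smallest p on the high side were 2 unnamed gene models. 3930402G23Rik, which lies next to Irs2 on chromosome 8 (chr8:10924427-10928696, with Irs2 at chr8:10984681-11008458), ran from 1.33 through 3.63 to 9.54 against 0.471 through 1.504 to 2.75, so that 13 high livers lay above every low liver. Its difference was 1.11 ± 0.20 (SE, adjusted p = 0.00441), with 1.23 among library numbers 1 to 30 and 0.50 among numbers 31 to 59. 2010003K11Rik on chromosome 19 was at 0.94 (adjusted p = 0.00722). Naa20, the catalytic subunit of an N-terminal acetyltransferase (0.36), Ahsa1, an activator of the Hsp90 ATPase (0.28), and Agxt, the peroxisomal alanine-glyoxylate aminotransferase (0.34), completed the 12 genes of smallest p, with adjusted p between 0.00441 and 0.00969.

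On the low side, the 12 genes of smallest p were led by a nuclear regulator and a hormone receptor. Bcl3, an IκB family protein that works with NF-κB in the nucleus, ran from 6.55 through 9.87 to 18.3 in the high livers and from 13.2 through 15.7 to 26.7 in the low livers. In 11 high livers it lay below every low liver, and the difference was -0.65 ± 0.11 (SE, adjusted p = 0.00441). Nr3c1, the glucocorticoid receptor, ran from 28.7 through 40.3 to 48.1 against 38.4 through 49.8 to 56.4. All 16 high livers lay below the low median (-0.31 ± 0.06 SE, adjusted p = 0.00722). Tk1, the thymidine kinase of dividing cells, was at -0.61, Wdr6, a WD repeat protein, at -0.50, Aifm3, of the apoptosis-inducing factor family, at -0.48, Asap3, which inactivates ARF GTPases, at -0.44, and Chst13, a chondroitin sulfotransferase, at -0.44. The adaptor gene Sh3bp2 (-0.40), the mitochondrial carbonic anhydrase gene Car5b (-0.38), the zinc finger gene Zfp367 (-0.36), the kinase gene Pdik1l (-0.32) and Fam8a1, of endoplasmic reticulum protein degradation (-0.25), completed them. The adjusted p of these 10 genes lay between 0.00792 and 0.0147, and each was negative within both sets of library numbers.

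The glucocorticoid response list did not follow its receptor. Of 18 genes 1 was higher and 1 lower (11.1% called, against 3.33% in either direction), the lower one being Nr3c1 itself, and the median was 0.21. The higher gene was Gadd45b, a stress-induced growth arrest gene, at 2.203 through 4.31 to 7.90 in the high and 1.11 through 2.02 to 5.21 in the low livers (0.81 ± 0.16 SE, adjusted p = 0.0105). In the list of ATF4 and the integrated stress response, 2 of 19 genes were higher (10.5%, against 1.8%) and the median was 0.21. These were Fgf21 and Atf5, a transcription factor of the mitochondrial stress response. Atf5 ran from 233 through 318 to 452 against 195.7 through 249 to 307 (0.39 ± 0.08 SE, adjusted p = 0.0147). Asns (0.60, adjusted p = 0.233) and Ddit4 (0.90, adjusted p = 0.113), standard targets of amino acid shortage, did not pass. Of 26 genes of amino acid catabolism and the urea cycle 1 was called (3.85%, near the background), Hgd of tyrosine breakdown (0.18, adjusted p = 0.0485). Of 18 chaperone genes 3 were higher (16.7%, against 1.8%), the mitochondrial pair Hspe1 (0.35, adjusted p = 0.0147) and Hspd1 (0.21, adjusted p = 0.0271) and the cytosolic Hsp90ab1 (0.22, adjusted p = 0.0449), and all 18 differences were positive with a median of 0.19. After the correction for transcript length 1 gene of the list was called. With the library set, animal number or Saa1 as a covariate no gene of the stress response, amino acid or chaperone lists was called.

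The family of Igfbp1 itself, with growth hormone signalling, split. Of 16 genes 2 were higher and 2 lower (25% called, against 3.33% in either direction), and the median was -0.10. Igfbp2, a second binding protein of the liver, ran from 487 through 687 to 1030.0 in the high livers and from 306 through 496 to 646 in the low livers, and 9 high livers exceeded all low ones (0.46 ± 0.10 SE, adjusted p = 0.017). Igfbp3, the main carrier of circulating IGF-1, which in the liver is made by cells other than hepatocytes and whose gene adjoins Igfbp1 (chr11:7206086-7213923), ran from 10.96 through 21.8 to 36.8 against 9.48 through 14.3 to 25.6 (0.56 ± 0.15 SE, adjusted p = 0.0401). Both receptor-side genes were lower: Ghr, the growth hormone receptor, at 133.1 through 193.8 to 301 against 165 through 272 to 294 (-0.40 ± 0.10 SE, adjusted p = 0.0268), and its kinase Jak2 at -0.22 ± 0.06 (SE, adjusted p = 0.0294). In 15 of 16 high livers Ghr lay below the low median. Igf1, the hormone they drive, was at -0.14 (adjusted p = 0.239) and Igfals, the acid-labile subunit, at -0.35 (adjusted p = 0.14). With the library set, animal number or Saa1 added to the fit, none of the 16 was called.

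Genes that differ between male and female liver varied with Igfbp1 although all mice were male. All 13 male-biased genes tested were lower in the high livers in direction, 5 passed the adjusted threshold (38.5%, against 1.53% of all genes in that direction), and the median was -0.77. These genes depend on the pulsatile growth hormone pattern of males. Selenbp2, a selenium-binding protein, ran from 11.7 through 49.3 to 145 in the high livers and from 34.8 through 168 to 420 in the low livers (-1.57 ± 0.34 SE, adjusted p = 0.0165). The complement gene C6 (-0.999), the glucuronosyltransferase gene Ugt2b1 (-0.63), the elongase gene Elovl3 (-1.48) and the oxysterol hydroxylase gene Cyp7b1 (-1.23) were the other called genes, with adjusted p between 0.0184 and 0.0496. Cyp2d9 (-0.54, adjusted p = 0.092) and Mup20 (-0.94, adjusted p = 0.0714) did not pass. Of 6 female-biased genes that reached the minimum mean, out of 15 listed, 3 were higher (50%, against 1.8%), among them the flavin monooxygenase gene Fmo2 (0.73, adjusted p = 0.0268) and the cytochrome gene Cyp2b9 (2.26, adjusted p = 0.0421).

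One high liver, library 24, stood apart in these genes. It held the highest value of Cyp2b9, 193 against a high median of 10.1 and a low median of 0.476, and the lowest values of Selenbp2 and Elovl3. Without it 3 of 13 male-biased genes were called with a median of -0.59, and 2 of 6 female-biased genes with a median of 0.79. Within the sets of library numbers the median of the male-biased genes was -0.90 and -0.64, and no list member passed the adjusted threshold in either set alone. None of the 13 male-biased and none of the 6 female-biased genes was called with the library set, with animal number or with Saa1 as a covariate, where the male-biased medians were -0.74, -0.63 and -0.58.

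**Figure D4:**
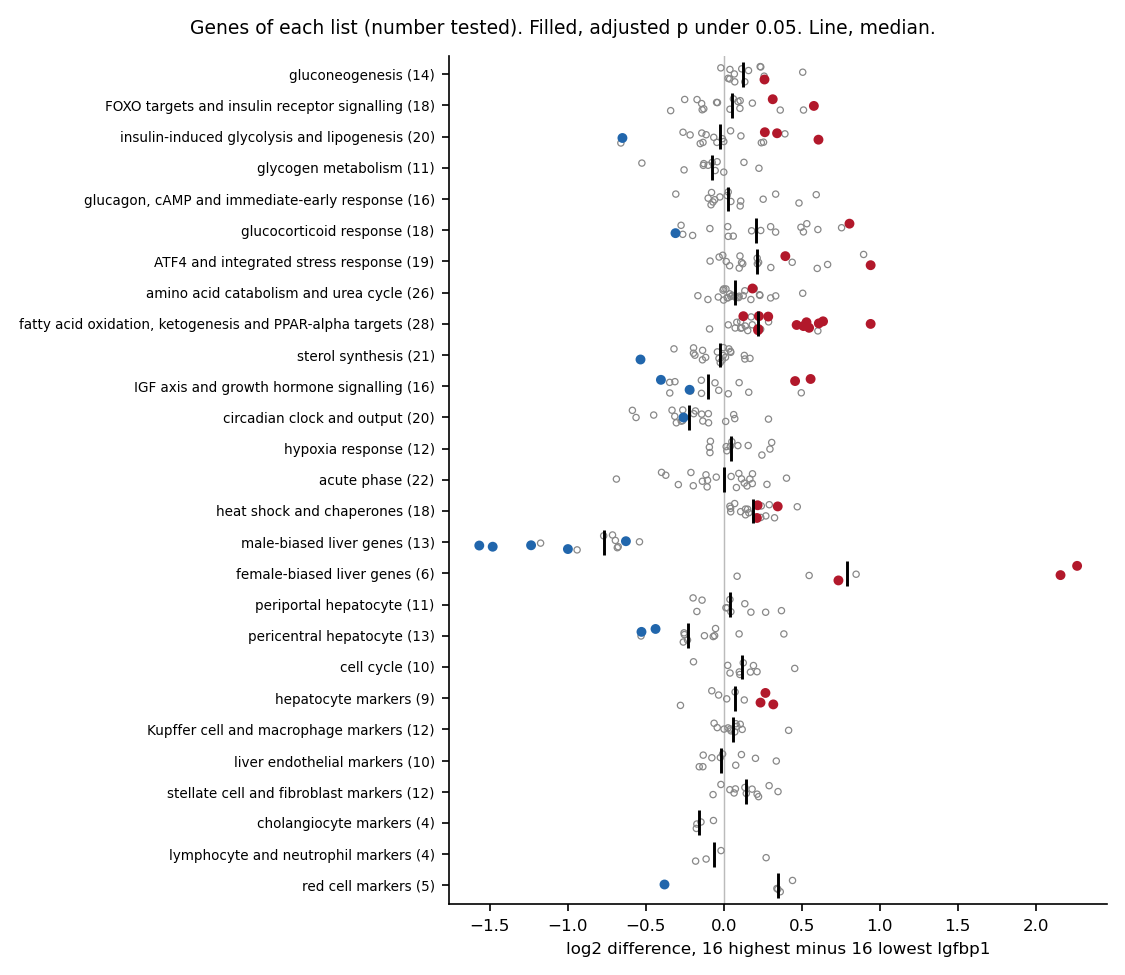
Log2 difference, high minus low Igfbp1 livers (horizontal axis), for each tested gene of 27 lists (rows, with the number tested). Filled red and blue points passed an adjusted p of 0.05 as higher or lower, open points did not, and vertical lines are medians, which run from -0.77 for male-biased to 0.79 for female-biased genes, with 0.22 for fatty acid oxidation and 0.12 for gluconeogenesis.

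Other programmes of the liver showed few calls. The enzymes of sterol synthesis did not pass, and the median of that list was -0.02. Of 20 clock genes 1 was lower (5%, against 1.53%), the output factor Hlf (-0.26, adjusted p = 0.0429), and the median was -0.23. Hlf was at -0.28 among library numbers 1 to 30 and at -0.08 among numbers 31 to 59. No clock gene was called with the library set, animal number or Saa1 as a covariate, or without library 24. Dbp, a strongly cycling output gene, was at -0.59 ± 0.31 (SE, adjusted p = 0.263). It was at -1.09 among library numbers 1 to 30 and at 0.29 among numbers 31 to 59. Of the 16 libraries with the lowest Dbp, 8 were high Igfbp1 livers and 2 were low ones. No gene was called in the lists of acute phase (22 genes, median -0.00), hypoxia (12, 0.05) or cell cycle (10, 0.11). Saa1, an inflammation-induced serum amyloid, was at -0.69 (adjusted p = 0.201), and its highest values, 457 in a low liver and 660.5 in a liver between, lay outside the high group, whose highest was 66.4.

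The marker lists describe RNA of the cell types that a liver piece can hold, and do not measure their shares. Hepatocyte markers were high in every library, with a summed value of 89540 through 122670 to 142233 in the high livers and 89063 through 107440 to 120782 in the low ones. Of 9 hepatocyte genes 3 were higher (33.3%, against 1.8%), Apoa1 (0.32), Ahsg (0.27) and Alb (0.24), with adjusted p between 0.017 and 0.0445. Apob was at -0.28 (adjusted p = 0.0545). After the correction for transcript length 1 gene of the list was higher, Apoa1, and 1 was lower, Apob (-0.19, adjusted p = 0.0494). Ahsg and Alb were then not called. No gene was called among 12 macrophage, 10 endothelial, 12 stellate cell, 4 cholangiocyte and 4 lymphocyte and neutrophil markers. Their summed values overlapped, for example 416 through 512 to 590.3 against 395 through 494 to 639 for macrophages. Of 5 red cell genes 1 was lower (20%, against 1.53%), Alas2 of haem synthesis (-0.38, adjusted p = 0.0336), while the haemoglobin genes were positive and did not pass. Of pericentral hepatocyte genes 2 of 13 were lower (15.4%, against 1.53%), Tbx3 (-0.53, adjusted p = 0.0418) and the Wnt target Axin2 (-0.44, adjusted p = 0.0489), with a median of -0.23, and of 11 periportal genes none was called (median 0.04). None of these marker calls passed with the library set, animal number or Saa1 as a covariate. Of the adipocyte and pancreas markers 1 reached the minimum mean, Cela1 (-0.07, adjusted p = 0.729).

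The groups were not balanced in what the labels record. The high group held 12 libraries numbered 1 to 30 and 4 numbered 31 to 59, against 7 and 9 in the low group, and the median animal number was 229.5 in the high and 193.5 in the low group. What these numbers stand for is not stated in the sources used here. Depth was alike, at a median of 13706364 counted reads in the high and 14057226 in the low livers. Within library numbers 1 to 30 alone no gene passed the adjusted threshold (1515 at an unadjusted p under 0.05), and none did within numbers 31 to 59 alone (1124 unadjusted), where the groups are smaller. With the library set in the fit as a covariate 38 genes were called, 37 of them among the 381, and with animal number 26. With both covariates 9 genes were called, namely Rgs16, Nipal1, Cyp4a14, Cyp4a10, Acadl, Fads2, Nr3c1, Car5b and Chst13. The difference of the contrast between the sets was itself tested and called no gene (smallest adjusted p = 0.594, 843 at an unadjusted p under 0.05).

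**Figure D5:**
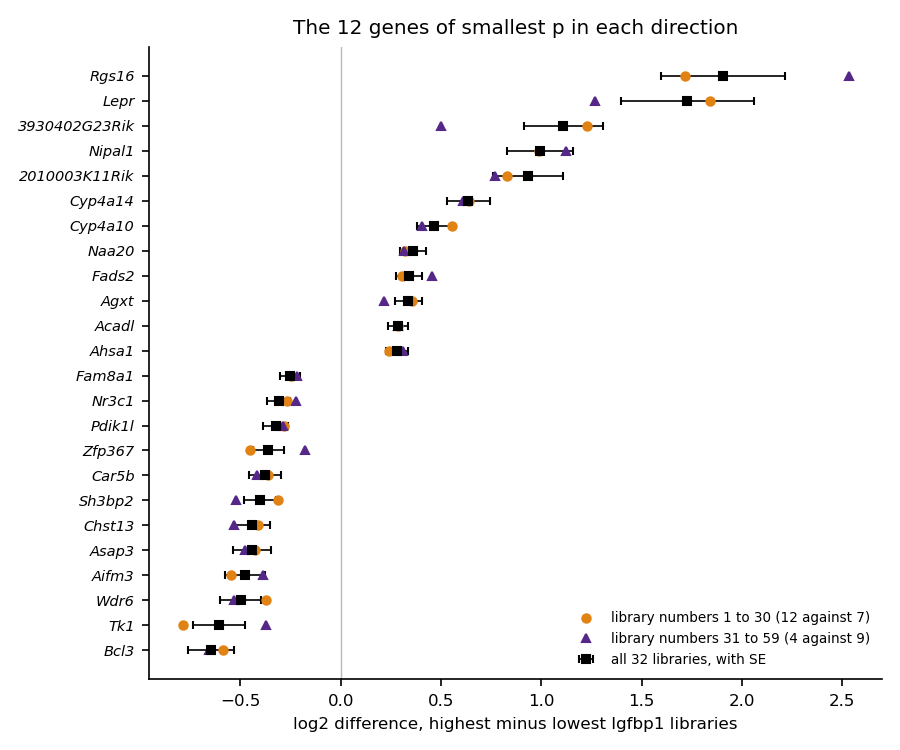
Log2 difference, high minus low Igfbp1 livers (horizontal axis), of the 12 genes of smallest p in each direction. Black squares with bars are all 32 libraries with the SE, orange circles library numbers 1 to 30 and purple triangles numbers 31 to 59; every gene keeps its sign in both sets, from 2.53 for Rgs16 in numbers 31 to 59 to -0.79 for Tk1 in numbers 1 to 30.

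The 18 livers between took no part in the tests above. Their median lay between those of the 2 groups for 94.7% of the 206 higher genes, 86.9% of the lower genes and 48.6% of all 11435 genes, which have narrower gaps between the groups by the choice of the called genes. Among these 18 alone, where Igfbp1 ranged only from 118 to 192.1, no gene followed Igfbp1 at the adjusted threshold (290 at an unadjusted p under 0.05). The sign was that of the main comparison for 79 of the 206 higher genes (38.3%) and 86 of the lower genes (49.1%), against 48.3% of all genes. These shares were not tested against each other.

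The called genes also differed in length. The median exonic length was 2898 bases for the higher genes, 5514 for the lower genes and 4439 for all genes tested, and across genes the difference fell with length (Spearman rho = -0.28, a description across genes that share libraries). After a correction for length 325 genes were called, 270 of them among the 381, and the fatty acid oxidation list kept 9 calls with a median of 0.20. Of the 65 called genes named by the rule given below, 54 were called again. The 11 others were Srebf1, Ahsg, Axin2, Acot2, Vnn1, Hspd1, Hsp90ab1, Fgf21, Acadvl, Hgd and Alb (limma adjusted p between 0.0509 and 0.0968). Why the difference fell with length was not tested.

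Genes whose values tag alleles of the segregating chromosomes were looked at last. Eno1b was at 17.6 ± 16.6 in the high and 7.14 ± 12.7 in the low livers (SD, n = 16 each, adjusted p = 0.249). Mup12 on chromosome 4 was at 442 ± 626 against 806 ± 941 (SD, adjusted p = 0.48), and Gm13394 at 69.0 ± 62.9 against 71.9 ± 50.2 (SD, adjusted p = 0.821). None of the 3 was called, and each varied over nearly its full range in both groups. The Eno1b median was 22.03 in the high and 0.233 in the low livers, and 11 of 16 high livers lay above the low median. Medians were 42.97 against 174.5 for Mup12 and 98.02 against 98.48 for Gm13394. Whether the alleles themselves were evenly spread between the groups was not tested.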

How the data were processed

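Liver RNA of 50 libraries was sequenced. Per the paper's methods and the submitters' processing notes, reads were trimmed (Trimmomatic in the methods, Trim Galore in the notes), aligned with HISAT2 to GRCm38.p5, counted per gene with HTSeq 0.11.1, filtered for low counts and normalized with edgeR. The deposited values are a signal, CPM with library sizes rescaled by edgeR, for 12185 genes. Dividing by the value of 1 read (0.0317 to 0.0864) returned whole numbers (100% within 0.01), or 11965594 to 29976557 reads per library. A floor of 3 reads (0.0951 to 0.259) covers counting error only.

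Libraries were ranked by Igfbp1, and the 16 at each end were compared with limma 3.58.1 in R 4.3.3 on log2(value + 0.5), two-sided, over 11435 genes with a mean of at least 1, without Igfbp1, adjusted by Benjamini-Hochberg and called under 0.05. The methods describe the libraries as those of individual mice. The 50 libraries carry 48 distinct animal numbers, which is not the number of mice given there. The numbers that stand on 2 libraries each (8 and 10, 22 and 55) were kept. Libraries 10 and 55 lay between the groups, so the comparison of 16 with 16 libraries repeats no animal number. Where a fit holds both libraries of a pair, as with continuous Igfbp1 over all 50 libraries, p-values may measure spread within an animal. edgeR 4.0.16 and DESeq2 1.42.0 were run on the whole reads as alternatives. Scripts were tested on simulated data. Gene positions came from GENCODE for GRCm38, promoters from RefSeq, all 4 matched by symbol. Python 3.11.15, numpy 2.4.6, pandas 2.3.3 and matplotlib 3.10.9 were used.

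The libraries and the gene lists were chosen with earlier results of these data known. Named were Igfbp1, Pck1 and G6pc, the 12 genes of smallest adjusted p in each direction (ties by the larger difference), members of the lists in order of p, and 3 genes that tag alleles. Other genes named were chosen after their values were seen. Results of some single genes are left out here.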

Additional observations from a re-analysis of the deposited data

How the results depend on the processing

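The number of called genes, 381, depended on which libraries and covariates entered. With 12 libraries at each end it was 27, with 20 it was 86 and with 25 it was 1. It was 641 with DESeq2 and 419 with edgeR. As a covariate, the set of library numbers gave 38, animal number 26, Saa1 17, and the set with animal number, added after seeing the data, 9. It was 0 within library numbers 1 to 30 and 0 within 31 to 59 (limma; 1515 and 1124 at an unadjusted p under 0.05). Without libraries 8 and 22, the compared libraries that share an animal number with a library between, it was 224. Without library 8 alone it was 223 and without library 22 alone 328. Without library 24 there were 122 higher and 95 lower genes. Leave-one-out counts, also added later, ran from 148 to 682, and 139 genes (77 higher, 62 lower) were called in each of the 32 fits. Leaving out library 31, 18, 30, 38, 33, 24, 36, 8, 43, 16, 15 or 23 lowered the count more than 1.5 times (to between 148 and 252), and leaving out 9, 42 or 20 raised it (to 631, 650.0 and 682). The causes of these shifts were not tested, other than that a single set and 12 libraries a side hold fewer libraries. The other alternatives, namely the pseudocount, the filter on low values, rescaling of totals, the trended prior, depth or Dbp as a covariate, and length or GC correction, kept the total within 1.5 times, although rescaling of totals left 115 lower genes and moved the share of higher genes among the calls from 54.1% to 61.8%, and Igfbp1 as a continuous value gave 534.

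Of the 65 called genes named by the rule, 62 were also called by edgeR, 63 by DESeq2, 54 after the length correction, 25 with the set of library numbers and 19 with animal number. G6pc passed only with continuous Igfbp1 (0.35). Over the leave-one-out fits Pck1 ran from 0.00 to 0.08 and G6pc from 0.18 to 0.31. Genes that were not called changed sign in 3 cases, Dbp within library numbers 31 to 59 (0.29) and Gm13394 with 25 libraries at each end (0.20) and within library numbers 1 to 30 (0.43). No paired analysis was possible because the labels give 1 group, with no replicate numbers shared between groups. Genes with few reads, such as Fgf21, Cyp2b9 and Car5b, rest on the least counted depth.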

Other observations

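The gene families below were chosen after their values were seen, and their counts are a description without a test. Over all genes tested 1.8% were called higher and 1.53% lower. Of 17 genes of the tricarboxylic acid cycle 5 were called higher (29.4%) and none lower, with a median difference of 0.12 (0.13 with totals rescaled, 0.10 after the length correction). Among them were Mdh2 (0.29, adjusted p = 0.0107), Fh1 (0.35), Suclg1 (0.24) and Idh3a (0.30). Of the 8 subunit genes of the CCT chaperonin, which folds actin and tubulin, 6 were called higher (75%), led by Cct3 (0.22, adjusted p = 0.0147), with a median of 0.17. Of 81 genes of oxidative phosphorylation 79 differences were positive and 4 were called (4.94%). All 75 cytosolic ribosomal protein genes were positive in direction with 3 called (4%), and their median of 0.17 came to 0.13 after the length correction. These transcripts are short, and the part of transcript length in them was not tested further. With the library set as a covariate 1 gene of the tricarboxylic acid cycle, 2 of CCT and none of the other families here were called, and with animal number or Saa1 none was.

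Of 22 complement genes 7 were called lower (31.8%) and none higher, and 15 did not pass, with a median of -0.17 (-0.16 with totals rescaled), and they included C9 at 332 ± 107 in the high against 514 ± 118 in the low livers (SD, n = 16 each, limma adjusted p = 0.0189) and Hc, the gene of C5, at 446 ± 79.9 against 573 ± 105 (adjusted p = 0.0242). C6 of this family is also one of the male-biased genes. All 20 major urinary protein genes, which share reads among near-identical copies on chromosome 4, were negative in direction with a median of -0.99, and 2 were called, Mup7 (-2.44, adjusted p = 0.0458) and Mup14 (-2.05, adjusted p = 0.0393). No complement or major urinary protein gene was called with the library set, animal number or Saa1 as a covariate, and no major urinary protein gene without library 24.

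Several genes outside the lists, also picked after their values were seen, had large differences. Depp1, a FOXO target induced by fasting, ran from 25.8 through 51.6 to 101 in the high livers and from 7.46 through 24.2 to 53.5 in the low livers (1.00 ± 0.22 SE, adjusted p = 0.017). Cidec, a lipid droplet protein, ran from 2.73 through 8.83 to 57.1 against 1.11 through 3.34 to 8.59 (1.34 ± 0.28 SE, adjusted p = 0.0147). Apoa4, an apolipoprotein that rises with liver fat, ran from 317 through 1058 to 3591 against 134 through 325 to 2434 (1.33 ± 0.32 SE, adjusted p = 0.0211). Car3, a cytosolic carbonic anhydrase of fat-storing tissue and male liver, ran from 37.9 through 134 to 337 against 146 through 373 to 546 (-1.19 ± 0.28 SE, adjusted p = 0.0189). In these genes too the groups overlapped.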
